A study of Homo sapiens with 12 samples.

Results

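Serum response factor (SRF) and genes of the actin cytoskeleton were followed in HT-29 cells, an established human colon adenocarcinoma line, during necroptosis. The 10 genes, of 26485 in the tables, were SRF itself and ACTB, ACTG1, VCL, TPM1, TPM4, FLNA, MYL9, TAGLN and FHL2. They were chosen by name as known SRF targets or actin-binding proteins, with earlier results of these data known. Polyadenylated RNA was sequenced after 8 h in 4 groups of 3 libraries. The TSZ+Nec-1s group received TNFα (10 ng/ml), SM-164 (50 nM), zVAD (20 µM) and Nec-1s (10 µM). The TSZ group received the first 3 of these agents at the same doses, the TNFα group TNFα alone (10 ng/ml), and the DMSO group the vehicle. SM-164 is a Smac mimetic that antagonises the inhibitor of apoptosis proteins. The caspase inhibitor zVAD closes the apoptotic route, and RIPK1 kinase activity is the target of Nec-1s. All groups were the same cell line, so the data describe cultured tumour epithelium and no tissue. No label states that replicate libraries came from different dishes, so every p-value here reflects library-to-library spread that may be technical.

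SRF is a MADS-box transcription factor that binds a motif called the CArG box, CC and GG around 6 bases that are each A or T. Its coactivators MRTFA and MRTFB bind monomeric actin and are held in the cytoplasm by it, so that polymerisation of actin frees them to enter the nucleus. The ternary complex factors of the ELK family instead couple SRF to MAP kinase signalling and to immediate early genes such as FOS. In epithelial cells, actin filaments carry the microvilli, the belt at cell junctions and the contacts with the matrix.

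CArG boxes were looked for in RefSeq promoter windows of GRCh38.p14, which run from 250 bases before to 50 after a transcription start. Windows were matched for 7 of the 10 genes, and 5 of these 7 genes held a box in at least 1 window. No window was matched for ACTB, MYL9 and TAGLN, so their promoters were not looked at. The genes were chosen as known SRF targets or actin-binding proteins, so their share is a description and no test. Over all genes, 438 of 27305 symbols with a window (1.6%) held a box in at least 1, which is 454 of 35116 windows (1.29%). The boxes of the 5 genes are shown because this is the sequence SRF reads. The stretches read 5′ to 3′ on the strand of the gene, and the capitals mark the box, which is the same motif on either strand.
SRF (chr6:43171224-43171268, plus strand): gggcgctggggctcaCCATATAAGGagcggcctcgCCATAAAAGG
ACTG1 (chr17:81512869-81512908, minus strand): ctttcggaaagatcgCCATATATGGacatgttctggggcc
TPM4 (chr19:16067350-16067389, plus strand): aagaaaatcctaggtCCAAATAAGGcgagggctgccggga
FLNA (chrX:154374704-154374743, minus strand): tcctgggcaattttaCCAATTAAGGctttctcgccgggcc
FHL2, upstream start (chr2:105438590-105438629, minus strand): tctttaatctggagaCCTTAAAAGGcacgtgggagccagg
FHL2, downstream start (chr2:105399086-105399125, minus strand): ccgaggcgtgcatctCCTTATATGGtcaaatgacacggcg

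The SRF promoter held 2 boxes, which begin at -30 and -10 relative to the start at position 43171269, inside the window of its own gene. The box of ACTG1 begins at -94, as does the box of FLNA, and the box of TPM4 begins at -173. FHL2 has starts far apart, and each of the 2 shown has its own box, at -101 and -59. The windows of VCL and TPM1, the other SRF window, the other 2 TPM4 windows and an FHL2 window in between hold no run of these letters. A match describes the letters in the window and is not a measured binding site.

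The tables held group means of normalized reads, which are reads divided by a size factor per library. Whole reads of each library were worked out from these means, and the libraries of a group are lettered a, b and c by falling size factor, since they could not be tied to the replicate numbers of the labels. For ACTB and ACTG1 in TSZ, 3 solutions each remained, and the tests are given for the one with the largest p. The libraries held 8765182 to 12731837 reads. In library a of TSZ, library a of TNFα and library b of DMSO, the deviation from the group mean fell with the GC content of the gene, with Spearman correlations of -0.817, -0.686 and -0.850. It rose with GC content in TSZ b and c, TNFα b and DMSO a and c (0.553 to 0.845), the deviations within a group being tied to each other through its mean, and lay between -0.175 and 0.293 in the other 4. Of the 10 genes, 9 had a GC content above the median of the tested genes (48.5%), with SRF at 60.8%, MYL9 at 60.2% and FLNA at 62.3%. All 10 genes passed the minimum mean of 10 normalized reads over the 12 libraries. MYL9 did so through TSZ, with a mean of 31.6 there, against 12.9 in DMSO, 8.65 in TSZ+Nec-1s and 5.88 in TNFα. The filter thus favoured a MYL9 level raised in TSZ, and its calls in comparisons with TSZ are not independent of it. In bulk RNA, fewer cells of a type and less RNA per cell cannot be told apart.

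TSZ was set against DMSO to see how these transcripts differ after 8 h of the combination that induces necroptosis. No group received SM-164 or zVAD without the other, so the parts of the agents cannot be told apart. All 10 genes rose in TSZ, by 1.58 to 2.74 times in the ratio of group means. ACTG1, the gene for cytoplasmic γ-actin, rose most by this ratio, and ACTB, the gene for β-actin, rose least. The median log2 fold change of the 10 was 1.07, beside -0.01 over the 11748 genes tested. Among all tested genes, 26.1% passed as higher and 24.2% as lower (limma, adjusted p under 0.05). In 8 of the 10 genes every TSZ library lay above every DMSO library, a pattern seen in 25.4% of all tested genes, and the other 2 are the actins. Without the 3 libraries low in GC-rich genes, an alternative chosen after seeing the data, all 10 genes were again called higher. The shares of all tested genes were then larger too, at 32.7% higher and 28.7% lower.

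SRF had 1178, 1615 and 1577 normalized reads in TSZ libraries a, b and c, against 699, 550 and 738 in DMSO. The lowest library of each group was one of those low in GC-rich genes, and the groups did not overlap. The log2 fold change was 1.13 ± 0.14 (SE, adjusted p = 1.8e-05, limma).

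ACTB averaged 83222 normalized reads in TSZ by the authors' mean, against 56452, 42391 and 59531 in the DMSO libraries. The TSZ libraries lie between 59277 and 107972 over the 3 solutions, so that in 1 solution the lowest TSZ library is just below the highest DMSO library. The log2 fold change was 0.63 to 0.66 over the solutions, and the largest adjusted p was 0.0097. ACTG1 averaged 88287 normalized reads in TSZ by the authors' mean, against 33782, 26971 and 36029 in the DMSO libraries. No solution puts a TSZ library of ACTG1 below 65507, above all DMSO libraries. Its log2 fold change was 1.43 to 1.46, with a largest adjusted p of 1.1e-05.

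For both actins the lowest DMSO library was b, which is low in GC-rich genes, and the highest was c, which has the largest positive correlation with GC content. DMSO had the widest spread of the 3 groups with solved libraries. ACTB and ACTG1 encode nearly identical proteins and have many processed pseudogene copies, so reads in shared stretches may have been left out or assigned to the other copy by the authors' counting.

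The tropomyosins, which run along the filament and set which proteins can bind it, rose in every library. TPM4 had 6434, 6599 and 6736 normalized reads in TSZ and 3115, 3159 and 2906 in DMSO. Its log2 fold change of 1.11 ± 0.08 (SE) had the smallest adjusted p of the 10 (9.6e-08). TPM1 had 1971, 1894 and 1910 normalized reads in TSZ and 1173, 1110 and 1225 in DMSO, a log2 fold change of 0.72 ± 0.08 (SE, adjusted p = 1.4e-05). In both genes the gap between the groups was several times the spread within them.

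FLNA encodes filamin A, which crosslinks filaments into a network. It had 25261, 33196 and 34462 normalized reads in TSZ and 14791, 12772 and 15988 in DMSO, a log2 fold change of 1.09 ± 0.12 (SE, adjusted p = 7.5e-06). VCL encodes vinculin, which links integrin and cadherin contacts to actin. VCL had 2628, 3019 and 2844 normalized reads in TSZ and 1781, 1836 and 1729 in DMSO, a log2 fold change of 0.67 ± 0.08 (SE, adjusted p = 2.9e-05). For either gene the lowest TSZ library lay well above the highest DMSO library.

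FHL2 encodes a LIM-domain protein that shuttles between focal adhesions and the nucleus and binds SRF. It had 1114, 1106 and 1214 normalized reads in TSZ and 596, 581 and 615 in DMSO, a log2 fold change of 0.94 ± 0.09 (SE, adjusted p = 2.1e-06). Its DMSO values were among the tightest of the 10 genes, with an SD of 16.7 on a mean of 597.

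TAGLN, which encodes the actin-binding protein transgelin of smooth muscle, and MYL9, a regulatory light chain of myosin, were scarce in these cells. TAGLN had 116, 95.9 and 120 normalized reads in TSZ and 55.8, 49.4 and 53.4 in DMSO, a log2 fold change of 1.05 ± 0.18 (SE, adjusted p = 0.00037). MYL9 had 28, 30 and 25 reads in TSZ and 22, 14 and 4 reads in DMSO before normalization. After it, the values were 31.1, 33.9 and 29.8 in TSZ and 19.8, 14.7 and 4.28 in DMSO. MYL9 did not overlap between the groups, but its log2 fold change of 1.46 ± 0.52 (SE, adjusted p = 0.033) rests on few reads. The call was lost without any 1 of the 3 TSZ libraries (adjusted p = 0.055 to 0.075) and without DMSO library c, at 0.86 and an adjusted p of 0.13.

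Both TAGLN and MYL9 are also expressed in smooth muscle and fibroblasts. Markers of those cells summed to 213 to 513 normalized reads in the TSZ libraries and 44.9 to 193 in the DMSO libraries, and COL1A1 and COL1A2 made up most of both sums. Of the 10 markers, 7 had a higher mean in TSZ than in DMSO and 3 a lower one, and 3 reached a mean of 10 in TSZ and 2 in DMSO. COL1A1 had means of 223 normalized reads in TSZ and 71.9 in DMSO, and the smooth muscle actin ACTA2 had 15.6 in TSZ and 4.76 in DMSO. The 3 lower markers, DES, MYH11 and LUM, had means of 0.370, 1.15 and 1.11 normalized reads in TSZ and 1.07, 3.27 and 2.77 in DMSO. The part of these markers in the TAGLN and MYL9 results was not tested. The authors' means of 10 colon epithelium markers summed to 215090 normalized reads in TSZ and 143160 in DMSO, with KRT8 and KRT18, whose TSZ libraries were not solved, the main share. Of these markers 8 had a higher mean in TSZ than in DMSO and 2 a lower one. The lower ones were VIL1, at 995 in TSZ and 1105 in DMSO, and the scarce CDX2, at 2.24 in TSZ and 4.75 in DMSO. Of 6 leukocyte markers, PTPRC and CD3E were at 0 in all groups. The 3 abundant enough to test were all called higher in TSZ, beside 26.1% of all tested genes. These were CD68 at means of 550 normalized reads in TSZ and 154 in DMSO, ITGAM at 117 in TSZ and 9.33 in DMSO, and LYZ at 19873 in TSZ and 14922 in DMSO. Their part in the results was not tested.

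**Figure D1:**
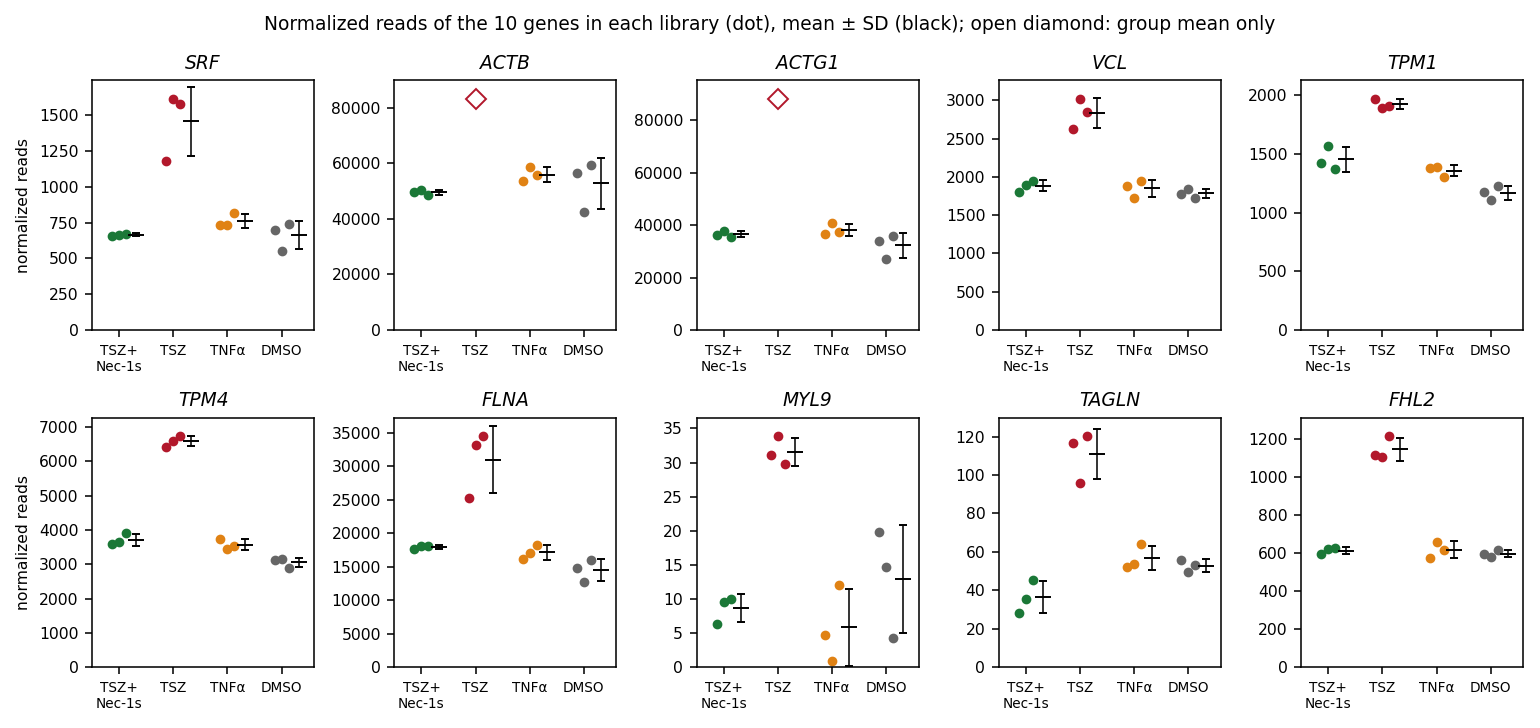
Normalized reads of each gene (vertical axis, from 0) in the libraries of TSZ+Nec-1s, TSZ, TNFα and DMSO, with black bars for mean ± SD and an open diamond where only the group mean is known. TSZ stands highest in all 10 panels, and the spread of MYL9 in TNFα and DMSO is wide beside its level.

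TSZ+Nec-1s was set against TSZ to see how these transcripts differ when Nec-1s is added. No group received Nec-1s alone, so inhibition of RIPK1 and other effects of the compound cannot be told apart. All 10 genes fell when Nec-1s was present, with ratios of group means between 0.274 for MYL9 and 0.756 for TPM1. The median log2 fold change of the 10 was -0.86, beside 0.02 over all genes tested. In this comparison 22.7% of all tested genes were called lower and 19.8% higher. In 8 of the 10 genes the libraries of TSZ+Nec-1s all lay below those of TSZ, as in 29.4% of all tested genes, and the other 2 are the actins, known by group mean only in TSZ. All 10 were again called lower without the 3 libraries low in GC-rich genes, where 32% of all tested genes were called lower and 30.9% higher.

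SRF had 656, 667 and 673 normalized reads in TSZ+Nec-1s, against 1178, 1615 and 1577 in TSZ. The log2 fold change was -1.12 ± 0.14 (SE, adjusted p = 3.1e-05). The SD of SRF was 8.42 in TSZ+Nec-1s and 242 in TSZ, where library a was far below the other 2.

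ACTB had 49518, 50536 and 48611 normalized reads in TSZ+Nec-1s, against a mean of 83222 in TSZ, and its log2 fold change lay between -0.74 and -0.71 with a largest adjusted p of 0.0064. ACTG1 had 36330, 37865 and 35555 in TSZ+Nec-1s, against a mean of 88287 in TSZ, and its log2 fold change lay between -1.27 and -1.24 with a largest adjusted p of 6.2e-05. No solution puts a TSZ library of either actin within the range of the TSZ+Nec-1s libraries.

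Among the filament-binding genes, TPM4 had 3590, 3652 and 3903 normalized reads in TSZ+Nec-1s and 6434, 6599 and 6736 in TSZ, a log2 fold change of -0.83 ± 0.08 (SE, adjusted p = 2.3e-06). TPM1 had 1423, 1571 and 1369 in TSZ+Nec-1s and 1971, 1894 and 1910 in TSZ, a log2 fold change of -0.41 ± 0.08 (SE, adjusted p = 0.0018). TPM1 thus had the smallest fall of the 10 genes, and it was the one whose call was lost when libraries were scaled to total reads (-0.07, adjusted p = 0.44) together with that of ACTB (-0.37, adjusted p = 0.070). FLNA had 17571, 18100 and 18160 normalized reads in TSZ+Nec-1s and 25261, 33196 and 34462 in TSZ, with a log2 fold change of -0.77 ± 0.12 (SE). VCL had 1806, 1897 and 1951 in TSZ+Nec-1s and 2628, 3019 and 2844 in TSZ, with a log2 fold change of -0.59 ± 0.08 (SE). FHL2 had 593, 622 and 625 in TSZ+Nec-1s and 1114, 1106 and 1214 in TSZ, with a log2 fold change of -0.90 ± 0.09 (SE). In these 3 genes the groups did not overlap, with adjusted p-values of 0.00021, 0.00013 and 4.5e-06 in the order given.

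The scarce genes were lower as well. TAGLN had 28.5, 35.6 and 45.3 normalized reads in TSZ+Nec-1s and 116, 95.9 and 120 in TSZ, a log2 fold change of -1.63 ± 0.19 (SE, adjusted p = 2.5e-05). MYL9 had 6.33, 9.55 and 10.1 normalized reads in TSZ+Nec-1s and 31.1, 33.9 and 29.8 in TSZ, a log2 fold change of -1.86 ± 0.54 (SE, adjusted p = 0.014). Without library a of TSZ+Nec-1s the MYL9 call was lost, at -1.65 and an adjusted p of 0.062. The smooth muscle and fibroblast markers summed to 34.0 to 57.3 normalized reads in TSZ+Nec-1s and 213 to 513 in TSZ, with 9 of the 10 lower in TSZ+Nec-1s and DES and PDGFRB at 0 there, and their part in these falls was not tested.

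**Figure D2:**
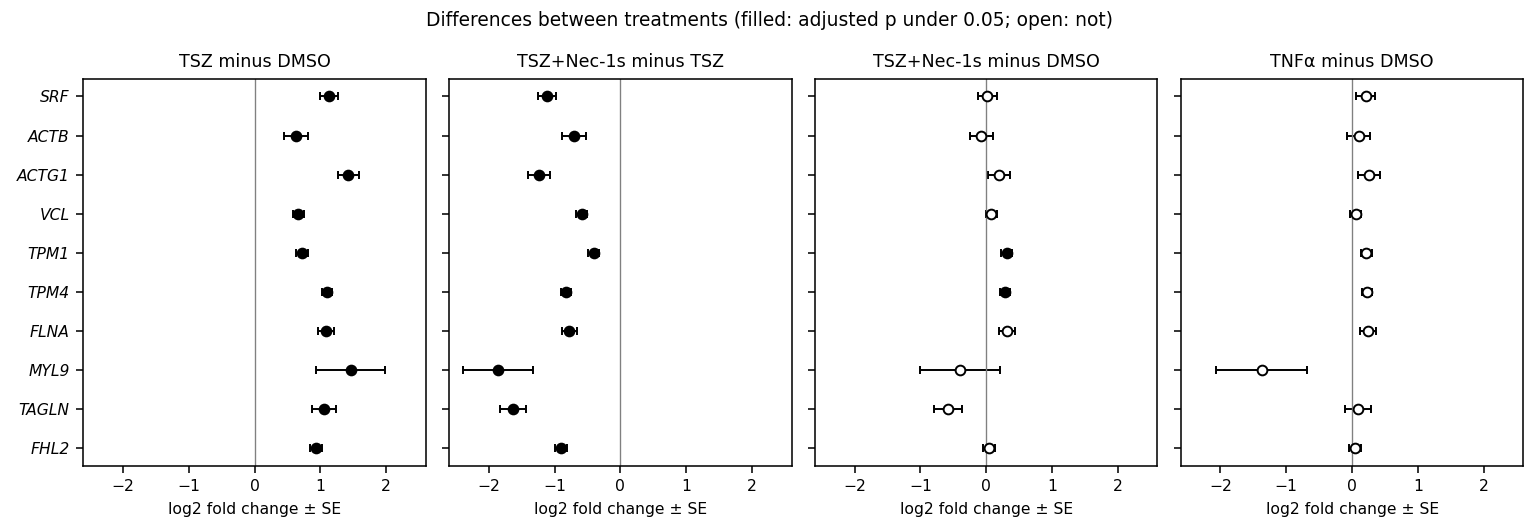
Log2 fold change ± SE of the 10 genes in 4 comparisons, with filled symbols for an adjusted p under 0.05 (for ACTB and ACTG1, the solution with the largest p). All 10 are filled to the right of 0 for TSZ minus DMSO and to the left for TSZ+Nec-1s minus TSZ, against TPM1 and TPM4 alone for TSZ+Nec-1s minus DMSO and none for TNFα minus DMSO.

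TSZ+Nec-1s was also set against DMSO, to see what differs from the vehicle when Nec-1s is present. TPM1 and TPM4 were the 2 genes of the 10 called higher, in a comparison where 7.18% of all tested genes were called higher and 5.74% lower. TPM1 had 1423, 1571 and 1369 normalized reads in TSZ+Nec-1s and 1173, 1110 and 1225 in DMSO, a log2 fold change of 0.31 ± 0.08 (SE, adjusted p = 0.027). TPM4 had 3590, 3652 and 3903 in TSZ+Nec-1s and 3115, 3159 and 2906 in DMSO, a log2 fold change of 0.28 ± 0.08 (SE, adjusted p = 0.030). Neither pair of groups overlapped, but the share of all tested genes without overlap was not counted, so this is a description only.

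Both calls were marginal. TPM1 was no longer called without library a or b of TSZ+Nec-1s or library a of DMSO (0.26 to 0.33, adjusted p = 0.078 to 0.14). TPM4 was no longer called without any 1 library of TSZ+Nec-1s or without library a or c of DMSO (0.24 to 0.30, adjusted p = 0.071 to 0.14), and neither was called when the libraries were scaled to total reads or by the upper quartile.

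FLNA, at 17571, 18100 and 18160 normalized reads in TSZ+Nec-1s and 14791, 12772 and 15988 in DMSO, did not overlap either, but its log2 fold change of 0.31 ± 0.12 (SE) had an adjusted p of 0.11. Without the 3 libraries low in GC-rich genes it was 0.22 ± 0.05 (SE) with an adjusted p of 0.00037. TAGLN lay below DMSO, with 28.5, 35.6 and 45.3 normalized reads in TSZ+Nec-1s and 55.8, 49.4 and 53.4 in DMSO, a log2 fold change of -0.58 ± 0.21 (SE, adjusted p = 0.092). Without those 3 libraries its log2 fold change was -0.63 and the adjusted p 0.036. SRF itself averaged 665 ± 8.42 normalized reads in TSZ+Nec-1s and 662 ± 99.1 in DMSO (SD, n = 3 each). Its log2 fold change was 0.02 ± 0.14 (SE). The log2 fold changes of ACTB, ACTG1, VCL and FHL2 lay between -0.08 and 0.19, and that of MYL9 was -0.40 ± 0.60 (SE), none past the threshold.

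TNFα alone was set against DMSO to separate the cytokine from the combination. Of the 10 genes, 0 were called by limma, where 3.14% of all tested genes were called higher and 1.07% lower, and 2 (TPM1 and TPM4) had an unadjusted p under 0.05. TPM4 had 3751, 3441 and 3532 normalized reads in TNFα and 3115, 3159 and 2906 in DMSO, a log2 fold change of 0.22 ± 0.08 (SE, adjusted p = 0.15). Its libraries did not overlap, but how often this held over all tested genes was not counted, so it is a description only. The TPM4 difference was called in 3 alternatives, one of them without the 3 libraries low in GC-rich genes (0.21, adjusted p = 0.032). FLNA, at 0.24 ± 0.12 (SE, adjusted p = 0.37), was likewise called without them (0.20, adjusted p = 0.012).

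SRF had 731, 731 and 817 normalized reads in TNFα and 699, 550 and 738 in DMSO, a log2 fold change of 0.21 ± 0.14 (SE, adjusted p = 0.55), with overlapping libraries. MYL9, with 5, 1 and 12 reads in TNFα and 22, 14 and 4 reads in DMSO, had a log2 fold change of -1.37 ± 0.69 (SE, adjusted p = 0.38), the only negative value of the 10, which at this depth cannot be told from 0.

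TSZ exceeded TNFα in all 10 genes, where 22.8% of all tested genes were called higher and 21.6% lower. The log2 fold changes ran from 0.50 ± 0.08 (SE) for TPM1 to 2.84 ± 0.63 (SE) for MYL9, with SRF at 0.93 ± 0.13 (SE) and TPM4 at 0.88 ± 0.08 (SE). ACTB was the least certain, with 83222 normalized reads in TSZ by the authors' mean and 53460, 58709 and 55649 in the TNFα libraries. Its log2 fold change was 0.53 with a largest adjusted p of 0.026. It lost the call without any 1 TSZ library or without library a or c of TNFα (0.32 to 0.53, adjusted p = 0.052 to 0.12).

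The last comparison set TSZ+Nec-1s against TNFα. Of the 10 genes, 0 were called by limma, in a comparison where 1.09% of all tested genes were called higher and 0.255% lower, and 1 (TAGLN) had an unadjusted p under 0.05. TAGLN had 28.5, 35.6 and 45.3 normalized reads in TSZ+Nec-1s and 52.3, 53.9 and 64.1 in TNFα. Its libraries did not overlap, but the share of all tested genes with this pattern was not counted, so it is a description only. The TAGLN log2 fold change was -0.67 ± 0.21 (SE, adjusted p = 0.16). Without the 3 libraries low in GC-rich genes, TAGLN (-0.73, adjusted p = 0.019) and SRF (-0.22, adjusted p = 0.031) were called lower.

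The 2 actins were also set against each other. The ratio of ACTG1 to ACTB reads within a library does not depend on how libraries are scaled. It was 0.734, 0.749 and 0.731 in TSZ+Nec-1s, 0.683, 0.698 and 0.670 in TNFα and 0.598, 0.636 and 0.605 in DMSO. The 3 sets of libraries did not overlap. In TSZ only the ratio of the group means is known, 1.06, against 0.738 in TSZ+Nec-1s, 0.684 in TNFα and 0.611 in DMSO, and over all 9 pairings of the solutions single libraries could lie between 0.612 and 1.88. An exact two-sided permutation test gave p = 0.1 for TSZ+Nec-1s against DMSO, for TNFα against DMSO and for TSZ+Nec-1s against TNFα, which is the smallest p that 3 against 3 libraries allow.

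**Figure D3:**
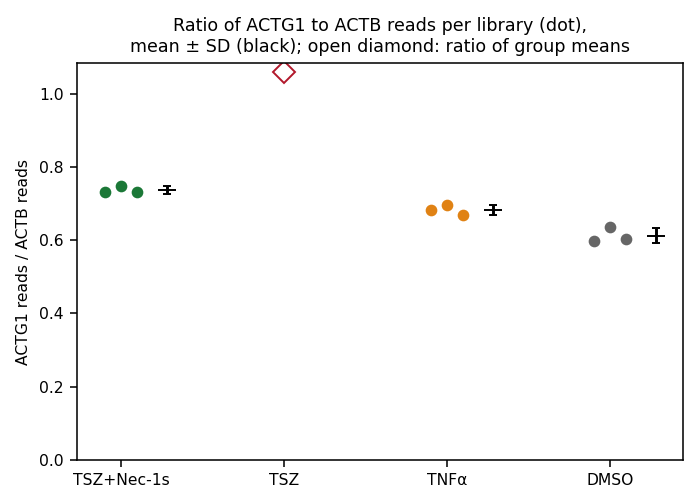
Ratio of ACTG1 reads to ACTB reads (vertical axis, from 0) in each library of TSZ+Nec-1s, TNFα and DMSO with mean ± SD, and the ratio of the group means for TSZ as an open diamond. The ratio is 1.06 in TSZ and between 0.598 and 0.749 in the libraries of the other 3 groups.

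Levels were compared between genes per kilobase of the GENCODE canonical transcript. In DMSO the order of mean normalized reads per kilobase was ACTB at 29134, ACTG1 at 16811, FLNA at 1706, TPM4 at 1237 and TPM1 at 961, then FHL2 at 378, VCL at 324, SRF at 156, TAGLN at 14.0 and MYL9 at 4.64. The order was the same in TNFα and TSZ+Nec-1s, and no neighbours in it overlapped between libraries in those 3 groups. In TSZ, ACTG1 at 46007 and ACTB at 45929 per kilobase stood level by their group means, while the order from FLNA down was that of DMSO. The 10 genes together took 1.71% of all normalized reads in TSZ, 1.12% in TSZ+Nec-1s, 1.20% in TNFα and 1.12% in DMSO, most of it from the actins.

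Other genes of the pathway were taken from 7 lists of 87 genes, of which 73 passed the minimum mean. In TSZ against DMSO, 47 of these 73 genes were higher (64.4%) and 3 lower (4.11%), beside 26.1% and 24.2% of all tested genes, and the median log2 fold change was 0.57. In TSZ+Nec-1s against TSZ, 45 of the 73 were lower (61.6%) and 4 higher (5.48%), beside 22.7% and 19.8% of all tested genes, with a median of -0.45. Without the 3 libraries low in GC-rich genes the counts were 56 higher and 5 lower in TSZ against DMSO, beside 32.7% and 28.7% of all tested genes. They were 53 lower and 11 higher in TSZ+Nec-1s against TSZ, beside 32% and 30.9%. In TNFα against DMSO 3 of the 73 were higher (4.11%) and 1 lower (1.37%), near the 3.14% and 1.07% of all tested genes.

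Among the SRF cofactors, 2 of the 5 measured genes rose in TSZ against DMSO and 1 fell, beside 26.1% and 24.2% of all tested genes. The cofactors went different ways. MRTFA (listed as MKL1), the actin-bound coactivator, rose to 460, 634 and 612 normalized reads in TSZ, against 398, 273 and 406 in DMSO, a log2 fold change of 0.67 ± 0.16 (SE, adjusted p = 0.0037). Its paralog MRTFB (listed as MKL2) fell to 264, 227 and 236 normalized reads in TSZ, against 348, 543 and 347 in DMSO, a log2 fold change of -0.73 ± 0.18 (SE, adjusted p = 0.0037). ELK1, a ternary complex factor, rose by 0.63 ± 0.13 (SE, adjusted p = 0.0012). With Nec-1s, MRTFA and ELK1 fell relative to TSZ (-0.64 and -0.55) and MRTFB rose (0.66), while ELK4 had a log2 fold change of -0.12 with an adjusted p of 0.78. ELK3 rose with Nec-1s by 0.70 (adjusted p = 0.0059).

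The immediate early SRF targets moved most. All 6 measured genes of 8 listed rose in TSZ against DMSO, beside 26.1% of all tested genes, with a median log2 fold change of 2.80. All 6 fell in TSZ+Nec-1s against TSZ, beside 22.7% of all tested genes, with a median of -1.55. FOSB, which encodes an AP-1 component, had 3106, 3819 and 4650 normalized reads in TSZ and 45.9, 21.0 and 36.3 in DMSO, a log2 fold change of 6.82 ± 0.31 (SE, adjusted p = 1.4e-09). FOS, its paralog, had 1843, 2061 and 2139 in TSZ and 258, 185 and 282 in DMSO, a log2 fold change of 3.07 ± 0.15 (SE, adjusted p = 2.7e-09). Both log2 fold changes were larger than that of any of the 10 genes. In TSZ+Nec-1s against DMSO 4 of the 6 were higher, beside 7.18% of all tested genes. In TNFα against DMSO 2 of the 6 were higher, beside 3.14%.

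Of 18 other SRF targets, several of them muscle genes, 8 were abundant enough to test. In TSZ against DMSO 6 of the 8 rose, beside 26.1% of all tested genes, and 2 did not pass the test. In TSZ+Nec-1s against TSZ 7 of the 8 fell, beside 22.7%. PDLIM7, a scaffold that ties kinases to filaments, rose by 1.27 ± 0.17 (SE, adjusted p = 4.9e-05) in TSZ. CCN1 (listed as CYR61), a secreted matrix protein also known as a YAP target, had 195, 272 and 245 normalized reads in TSZ and 105, 95.6 and 102 in DMSO, a log2 fold change of 1.22 ± 0.18 (SE, adjusted p = 0.00013). The smooth muscle genes ACTA2 and CNN1 did not pass the minimum, at means of 15.6 and 3.42 normalized reads in TSZ and 4.76 and 0.300 in DMSO.

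The machinery that builds and recycles filaments moved less. Of 15 nucleators, 9 rose in TSZ against DMSO, beside 26.1% of all tested genes, and 6 did not pass. The median log2 fold change was 0.48. WASF2, which turns Rac signals on to the Arp2/3 complex, rose by 1.36 ± 0.09 (SE, adjusted p = 5.7e-08), and WASL, its counterpart under Cdc42, by 0.97 ± 0.23 (SE, adjusted p = 0.0034). WASL had 1026, 673 and 639 normalized reads in TSZ and 335, 573 and 312 in DMSO. With Nec-1s 7 of the 15 fell relative to TSZ, beside 22.7% of all tested genes, with WASF2 at -1.42. Of 14 turnover genes, 9 rose and 1 fell in TSZ against DMSO, beside 26.1% and 24.2% of all tested genes. DSTN, an actin-severing protein, rose by 1.26 ± 0.28 (SE, adjusted p = 0.0023) and TMSB4X, which holds monomeric actin, by 1.24 ± 0.14 (SE, adjusted p = 7.8e-06). The profilin PFN2 fell by 0.62 on the log2 scale (adjusted p = 0.044). DSTN had 6728, 3701 and 3470 normalized reads in TSZ and 1502, 2982 and 1406 in DMSO. PFN2 overlapped, with 1837, 1097 and 1100 in TSZ and 1782, 2933 and 1550 in DMSO. TSZ library a and DMSO library b, both low in GC-rich genes, were the highest of their groups in WASL, DSTN and PFN2. With Nec-1s 8 of the 14 fell relative to TSZ, beside 22.7% of all tested genes, and PFN2 rose (0.66, adjusted p = 0.038).

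Among crosslinkers and myosins, 9 of 14 measured genes rose in TSZ against DMSO and 1 fell, beside 26.1% and 24.2% of all tested genes. EZR, which encodes the microvillar linker ezrin, had 12941, 14537 and 14598 normalized reads in TSZ and 4907, 3852 and 5082 in DMSO, a log2 fold change of 1.61 ± 0.10 (SE, adjusted p = 5.0e-08). The nonmuscle myosin heavy chain MYH14 rose by 1.28 ± 0.13 (SE, adjusted p = 3.5e-06), whereas its relative MYH10 fell by 1.03 on the log2 scale (adjusted p = 1.1e-05). With Nec-1s 10 of the 14 fell relative to TSZ, beside 22.7% of all tested genes. MYH14 and MYH10 thus had opposite signs in the same libraries. Another nonmuscle heavy chain, MYH9, had higher means in TSZ (14109 normalized reads) than in DMSO (9961).

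Of 11 focal adhesion genes, 6 rose in TSZ against DMSO, beside 26.1% of all tested genes, and 5 did not pass. ZYX, which encodes zyxin of mature adhesions, had 4365, 5615 and 6097 normalized reads in TSZ and 2319, 1563 and 2389 in DMSO, a log2 fold change of 1.37 ± 0.16 (SE, adjusted p = 1.2e-05). VASP, a zyxin partner that speeds filament growth, rose by 1.21 ± 0.13 (SE, adjusted p = 5.4e-06). With Nec-1s 5 of the 11 fell relative to TSZ, beside 22.7% of all tested genes. The log2 fold changes were -1.12 for ZYX and -0.70 for VASP.

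**Figure D4:**
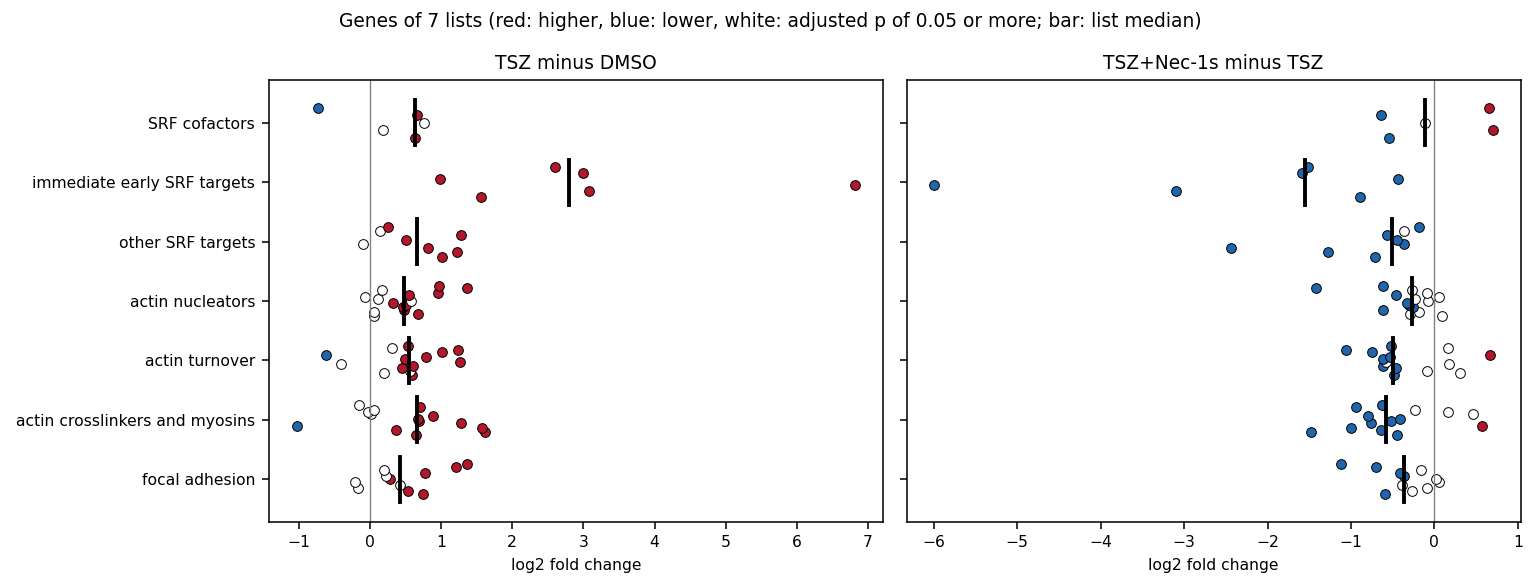
Log2 fold change of each measured gene of the 7 lists for TSZ minus DMSO (left) and TSZ+Nec-1s minus TSZ (right), in red where higher, blue where lower and white where not called, with a bar at the list median. With median-ratio scaling the median of every list is above 0 on the left and below 0 on the right (under total reads, those of cofactors and nucleators are 0.22 and 0.06 on the right), and immediate early SRF targets have the largest medians, 2.80 and -1.55.

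The list counts depended on scaling. Under total reads 25 of the 73 were higher and 12 lower in TSZ against DMSO, where 14.2% of all tested genes were then called higher and 48.4% lower. In TSZ+Nec-1s against TSZ 22 were lower and 9 higher, where the shares of all tested genes were 11.9% and 42.1%. For TSZ against DMSO the nucleators then gave 1 higher and 2 lower and the focal adhesion genes 4 higher and 2 lower. The cofactors gave 1 lower and no MRTFA or ELK1 call, while all 6 immediate early targets were again called higher.

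In the remaining comparisons the counts for the 73 genes were as follows. In TSZ against TNFα 45 were higher (61.6%) and 2 lower (2.74%), beside 22.8% and 21.6% of all tested genes. In TSZ+Nec-1s against DMSO 8 were higher (10.96%) and 4 lower (5.48%), beside 7.18% and 5.74%. In TSZ+Nec-1s against TNFα limma called 0 of them, beside 1.09% higher and 0.255% lower, with 17 at an unadjusted p under 0.05.

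Genes with a CArG box in a promoter window were looked at as a whole, with the 10 genes left out. Of 124 tested genes with a box, 50 were higher in TSZ than in DMSO (40.3%) and 24 lower (19.4%), against 26.2% and 24.4% of the 8784 tested genes with windows and no box. In TSZ+Nec-1s against TSZ, 43 of the 124 were lower (34.7%) and 19 higher (15.3%), against 22.3% and 20.2% of genes without. Box genes were also called higher more often in groups other than TSZ. With Nec-1s added, 20 of the 124 lay above DMSO (16.1%) and 11 below it (8.87%). Genes without a box gave 7.04% and 5.49%. After TNFα alone, 9 of the 124 lay above DMSO (7.26%) and 0 below it, beside 3.12% and 0.968% of genes without. The larger share called higher was thus not confined to TSZ. All these shares are a description, with no test.

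The pattern of SRF over the 12 libraries was compared with that of 9928 genes with a mean of at least 50 normalized reads. Among the 5 most alike by Pearson's r of log2 values were ELF4, an ETS-family transcription factor (r = 0.998), BRD2, a chromatin reader (0.997), DOT1L, a histone methyltransferase (0.996), and DHCR7, an enzyme of cholesterol synthesis (0.995). ELF4 had means of 1404 normalized reads in TSZ+Nec-1s, 2561 in TSZ, 1557 in TNFα and 1384 in DMSO. Of the other members, r with SRF was 0.964 for FLNA, 0.949 for FHL2, 0.943 for VCL, 0.919 for TPM4, 0.864 for TAGLN and 0.852 for TPM1. The 12 points fall into treatment groups and share libraries, depth and base composition, so these values describe likeness only.

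How libraries are scaled bears on the size of all these changes. Scaling to total reads in place of median-ratio size factors moved the median over all genes to -0.43 in TSZ against DMSO and to 0.35 in TSZ+Nec-1s against TSZ, and scaling by the upper quartile moved it to -0.14 and 0.07. Under total reads, 1673 genes were called higher and 5681 lower in TSZ against DMSO, beside 3062 and 2839 with median-ratio factors. For TSZ+Nec-1s against TSZ the counts were 4942 higher and 1402 lower, beside 2322 and 2672. The 10 genes kept their sign in both comparisons. Their log2 fold changes under total reads were 0.22 to 1.06 in TSZ against DMSO, with 8 called, and -1.53 to -0.07 in TSZ+Nec-1s against TSZ, with 8 called. The genes not called were ACTB and MYL9 in TSZ against DMSO, and ACTB and TPM1 in TSZ+Nec-1s against TSZ.

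**Figure D5:**
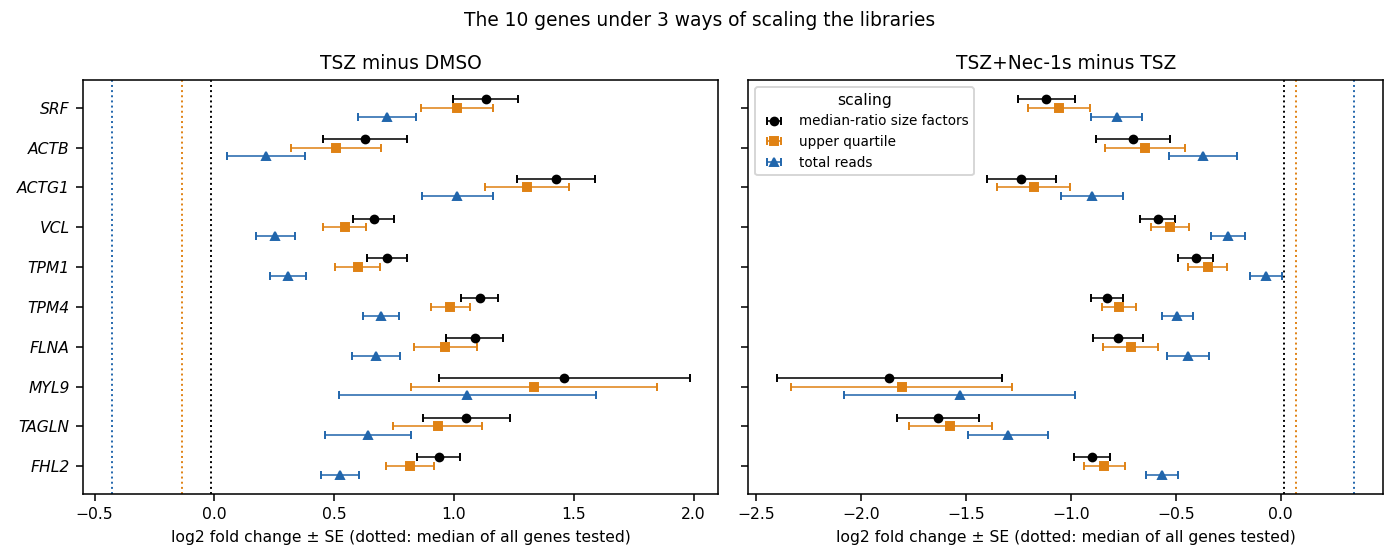
Log2 fold change ± SE of the 10 genes under 3 ways of scaling the libraries, for TSZ minus DMSO (left) and TSZ+Nec-1s minus TSZ (right), with dotted lines at the median of all tested genes. Every gene lies to the right of its dotted line on the left and to the left of it on the right.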

How the data were processed

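The authors deposited 6 tables, 1 for each pair of groups, with values for 26485 genes. The submitters' processing notes name STAR, HTSeq, DESeq and hg38, which by the study's methods served for alignment, counting and normalization by the authors. The values used here are the deposited group means, a signal in normalized reads (reads divided by a size factor per library, averaged over 3 libraries). The tables also hold the authors' fold changes and p-values, which were not used. Whole reads per library were solved from the means, which are given to 15 digits and are weighted sums of 3 whole numbers. In each group at least 99.6% of low values fitted the 3 steps found. A single solution was left for all but 1 gene in TSZ+Nec-1s, 10 in TSZ, 4 in TNFα and 0 in DMSO. Where several solutions fitted, only those with libraries within 2 times of each other were kept. For genes with very many reads the search was limited to values within 2 times of the group mean. This recovery cannot say which library carries which replicate label. The planned count analysis thus ran on recovered reads, with limma 3.58.1 (voom weights) in R 4.3.3 over 12 libraries in 1 fit, for genes averaging 10 or more normalized reads, adjusted by the Benjamini-Hochberg method over 11748 genes and called under 0.05. Fold changes are log2. Scripts were tested on simulated data.

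Counting did not use strand, so antisense reads could not be told apart. Gene positions, lengths and GC content came from GENCODE, through 23161 direct and 1381 older symbols. The members, lists and tests were chosen with earlier results of these data known. Genes named from a list are the 2 largest rises and 2 largest falls in TSZ against DMSO among called genes averaging 50 or more, and the 5 genes most like SRF by Pearson's r. MYL9, TAGLN and others named as markers or members were named as such. ELK3, ELK4, ACTA2, CNN1 and MYH9 were added after their values were seen. One of these 5 and 1 of the gene lists are not reported here. Alternatives were other scalings, filters, pseudocounts, library weights, a GC correction, fits of 2 groups and leaving out single libraries.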

Additional observations from a re-analysis of the deposited data

How the results depend on the processing

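No paired analysis was possible because the recovered libraries carry no replicate number and the deposited values are group means.

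Under every alternative run, 8 to 10 members were called higher in TSZ than in DMSO, 8 to 10 higher in TSZ than in TNFα and 8 to 10 lower in TSZ+Nec-1s than in TSZ. Of all tested genes, 1673 (14.2%, total reads) to 4097 (quality weights) were called higher in TSZ than in DMSO. Lower in TSZ+Nec-1s than in TSZ were 1402 (11.9%, total reads) to 3842 (quality weights). Higher in TSZ than in TNFα were 1492 under total reads, beside 2682 (22.8%) in the results above. With quality weights per library the members called in TNFα against DMSO were 3 higher, in TSZ+Nec-1s against DMSO 3 higher and 2 lower, and in TSZ+Nec-1s against TNFα 2 lower. All genes called then numbered 7583 (TSZ+Nec-1s against TSZ), 2148 (TNFα against DMSO), 6910 (TSZ+Nec-1s against DMSO) and 4145 (TSZ+Nec-1s against TNFα). With the GC trend removed, 1 member was higher in TNFα than in DMSO, and the genes called were 1551 in TNFα against DMSO, 3328 in TSZ+Nec-1s against DMSO and 593 in TSZ+Nec-1s against TNFα. Fits of 2 groups called 0 members higher in TSZ+Nec-1s than in DMSO and 2 lower in TSZ+Nec-1s than in TNFα, with 233, 975 and 3150 genes called in TNFα against DMSO, TSZ+Nec-1s against DMSO and TSZ+Nec-1s against TNFα. Scaling to total reads gave 0 members higher and 1 lower in TSZ+Nec-1s against DMSO, beside 729 and 1313 of all genes. Scaling by the upper quartile gave 0 higher, beside 686 of all genes. Without the 3 libraries low in GC-rich genes, chosen after seeing the data, 2 members were higher in TNFα than in DMSO, 3 higher and 1 lower in TSZ+Nec-1s than in DMSO and 2 lower in TSZ+Nec-1s than in TNFα. All genes called were then 1304, 5860 and 4831 in these comparisons, beside 495, 1517 and 158 with all libraries. Leaving out 1 library, 0 to 3 members were called higher in TSZ+Nec-1s than in DMSO, and the genes called ranged over 298 to 603 in TNFα against DMSO, 865 to 3922 in TSZ+Nec-1s against DMSO and 50 to 944 in TSZ+Nec-1s against TNFα. The cause of these shifts was not tested. The MYL9 call in TSZ against DMSO was lost under 7 of 21 alternatives.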
